A study of Mus musculus with 18 samples.

Results

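The nuclear genes for the subunits of the mitochondrial respiratory chain and ATP synthase were followed in the liver of mice fed bisphenol A. They were taken by name: every gene whose name on the array starts with Ndufa, Ndufb, Ndufc, Ndufs, Ndufv, Sdha to Sdhd, Uqcr, Cox4 to Cox8 or Atp5. This matched 83 genes, of which 80 had a probe that the scanner software marked as well above background on 6 or more of the 18 arrays, out of 17688 genes in all with such a probe. By prefix, 38 belong to complex I, 4 to complex II, 7 to complex III, 15 to complex IV and 16 to complex V. Of the 80, 76 encode subunits and 4 do not: Ndufaf1 and Ndufa12l (an older name of Ndufaf2 in RefSeq), assembly factors of complex I, Cox4nb, now named Emc8, and Atp5s, now named Dmac2l. The 3 genes left out were Cox4i2, well above background on 2 arrays, and Cox8b and Cox8c, on 0 arrays each. Cox4i2 is the lung-type form and Cox8b the heart and muscle form of their subunits. Subunits with names outside these prefixes, such as Cyc1, cytochrome c1 of complex III, are not members.

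The mice were male CD-1, 9 weeks old, and had eaten a powdered diet rich in starch (49%) and sucrose (24.4%) for 28 days from 5 weeks of age. The control diet held no bisphenol A. The low-dose diet was made to give 50 µg per kg body weight per day. The labels call this dose the TDI, the tolerable daily intake. The diet of the remaining group was made to give 5000 µg per kg per day, the NOAEL (no-observed-adverse-effect level) of the labels, called the high dose here. Both doses assume an average food intake, so the dose each mouse took in was not measured. Each group had 6 mice, and a piece of the large liver lobe of each mouse was read on 1 Agilent array with 1 colour. The question of the design is whether either dose changes liver transcripts. Both doses are set against the same 6 control mice.

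The respiratory chain carries electrons from NADH and succinate to oxygen and pumps protons across the inner mitochondrial membrane. Complex I (the Nduf genes) oxidises NADH, complex II (the Sdh genes) oxidises succinate, complex III (the Uqcr genes) passes electrons from coenzyme Q to cytochrome c, and complex IV (the Cox genes) reduces oxygen. Complex V (the Atp5 genes), the ATP synthase, makes ATP from the returning protons. Hepatocytes are rich in mitochondria and use this ATP for urea, glucose and lipid synthesis. All complexes but complex II also hold subunits encoded in mitochondrial DNA, and nuclear factors such as NRF1, the ETS factor GABPA, YY1 and the estrogen-related receptors are known to act on promoters of the nuclear subunit genes.

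Levels are log2 intensities relative to the 75th percentile of the same array, so that 0 is the 75th percentile, and differences between groups are log2 fold changes. The level of one probe cannot be set against that of another. All 10 hepatocyte markers measured were well above background on all 18 arrays, whereas 6 of 9 striated muscle markers (Acta1, Ckm, Myh6, Myh7, Myl2 and Mb) and 4 of 5 adipose markers (Adipoq, Plin1, Lep and Retn) were on too few arrays to be kept. Tnnt2, Tnni3 and Actc1 of muscle and Cidea of adipose tissue were kept, with 1 of the 3 muscle markers and 0 of the 1 adipose marker well above background on all 18 arrays. Arrays correlated with each other at 0.970 to 0.990 over probes. The raw 75th percentile was brighter by 0.35 (log2) in the low-dose than in the control arrays (exact permutation test, two-sided, p = 0.0303) and by 0.34 in the high-dose arrays (p = 0.0195). The 29 genes with a probe saturated on all 18 arrays, whose signal cannot go above the ceiling of the scanner, had medians of -0.36 and -0.33 against control. Of the respiratory chain genes, Cox6a1 was saturated on all 18 arrays and has no fold change here, Uqcrq was on 17, Atp5b on 11, and Atp5a1 and Atp5g3 on 1 each. In whole liver, fewer cells of a type and less RNA per cell cannot be told apart.

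Promoter windows of RefSeq (build GRCm38.p6, 250 bases before to 50 after a start) were found for 66 of the 80 genes. Of these 66, 25.8% held the ETS letters CCGGAAG, against 9.93% of the 27025 genes in the table, on either strand. The NRF1 letters GCATGCGC stood in 15.2% against 3.05%, the YY1 letters AAGATGGCG in 10.6% against 1.64%, and the estrogen-related receptor letters TCAAGGTCA in 3.03% against 0.466%. The windows of these genes had a median GC content of 57.7%, and all windows 52.7%. A copy of the letters is a description and not a site of binding. The 250 bases before the start are shown for 1 gene of each complex that the high-dose comparison names and whose window holds such letters. Capitals mark NRF1 letters (from 83 bases before the start in Ndufa6, 54 in Sdhb, 240 in Atp5l, and overlapping on both strands from 162 and 160 in Cox6a1) and ETS letters (from 10 in Uqcrh, 16 in Cox6a1 and 212 in Atp5l, all on the opposite strand).
Ndufa6 (chr15:82354292-82354541, minus strand): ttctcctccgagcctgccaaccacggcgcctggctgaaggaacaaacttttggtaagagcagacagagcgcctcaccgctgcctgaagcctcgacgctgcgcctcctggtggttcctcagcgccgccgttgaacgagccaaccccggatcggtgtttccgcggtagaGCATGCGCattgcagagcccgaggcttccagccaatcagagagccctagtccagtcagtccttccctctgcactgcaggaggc
Sdhb (chr4:140961021-140961270, plus strand): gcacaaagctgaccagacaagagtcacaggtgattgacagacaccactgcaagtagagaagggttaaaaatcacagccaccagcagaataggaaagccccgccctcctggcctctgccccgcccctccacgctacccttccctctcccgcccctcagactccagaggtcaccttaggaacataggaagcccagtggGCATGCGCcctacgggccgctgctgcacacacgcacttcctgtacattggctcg
Uqcrh (chr4:116075071-116075320, minus strand): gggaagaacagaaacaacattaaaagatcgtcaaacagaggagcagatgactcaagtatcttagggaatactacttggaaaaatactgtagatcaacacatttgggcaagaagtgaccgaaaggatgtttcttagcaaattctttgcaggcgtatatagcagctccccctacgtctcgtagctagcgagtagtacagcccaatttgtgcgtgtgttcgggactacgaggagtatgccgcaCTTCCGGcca
Cox6a1 (chr5:115348959-115349208, minus strand): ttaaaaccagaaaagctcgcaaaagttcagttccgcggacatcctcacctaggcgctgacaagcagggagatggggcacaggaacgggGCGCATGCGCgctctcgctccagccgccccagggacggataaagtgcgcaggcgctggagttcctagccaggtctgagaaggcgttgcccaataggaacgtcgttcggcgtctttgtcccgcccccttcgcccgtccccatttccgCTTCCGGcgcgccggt
Atp5l (chr9:44920743-44920992, minus strand): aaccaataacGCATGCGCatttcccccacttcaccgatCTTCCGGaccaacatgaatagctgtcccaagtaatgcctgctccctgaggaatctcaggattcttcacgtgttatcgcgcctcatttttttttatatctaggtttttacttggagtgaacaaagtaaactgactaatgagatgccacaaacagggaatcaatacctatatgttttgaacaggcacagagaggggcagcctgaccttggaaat

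At the low dose, none of the 80 genes passed an adjusted p of 0.05 over all genes (limma, Benjamini-Hochberg), in a comparison where 42 of 17682 genes, or 0.238%, passed. Higher and lower values were near balance, 38 against 42, and their median was -0.01, as was the median of all genes. Without adjustment, 3 were higher at p under 0.05 (background 5.81% of all genes) and 2 lower (background 5.7%). The 3 higher genes were Ndufc1, Cox7c and Atp5k, and the 2 lower ones were the saturated Uqcrq and Cox6a1. The values of the 6 low-dose mice lay wholly above those of the 6 controls for 1 gene, Ndufc1 (background 0.871% higher), and wholly below for 0 genes (background 0.871% lower). The 95% interval of the difference lay within 0.5 on either side of 0 for 72 of the 80 genes (90%), against 46.6% of all genes. The 2 sets were not matched for brightness, here or in the same count at the high dose. Counts and medians over the 80 genes include the saturated Cox6a1. With background corrected by normexp instead, the low-dose median was 0.32 and 73 of the 80 genes were higher, while the median of all genes was -0.08. This setting adds 50 units to each intensity before the log, and the raw 75th percentiles of the arrays ran from 173 to 340. The part of this offset in the normexp values was not tested. By complex, the low-dose median was 0.01 in complex I (16 of 38 lower), -0.02 in complex II (2 of 4), 0.03 in complex III (3 of 7), -0.04 in complex IV (9 of 15) and -0.03 in complex V (12 of 16). These medians also shifted with the scaling, that of complex III to -0.02 in the deposited table and to 0.21 with normexp. On slides that held both groups, the median over these genes differed between low dose and control by -0.06 to 0.16 on 4 slides.

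Ndufc1, a small accessory subunit of complex I, read by a probe at chr3:51493415-51493474 (mm8, minus strand), had levels of 4.62, 4.82 and 4.95 (lowest, median and highest of 6) in controls. The low-dose values were 4.96, 5.03 and 5.13, and the high-dose values 4.53, 4.86 and 5.06. No low-dose mouse fell within the control range, though the margin was narrow, and the high-dose mice reached into both. The low-dose difference was 0.23 ± 0.09 (SE; limma, adjusted p = 0.324), and the other Ndufc1 probes gave 0.11 ± 0.11 and -0.34 ± 0.31. No other gene of the set had probes as far apart at this dose.

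Cox7c, a small structural subunit of complex IV (probe at chr13:86518268-86519145, mm8, minus strand, spanning an intron), had control levels of 3.31, 3.98 and 4.39. The low-dose levels were 3.92, 4.37 and 4.52. The groups overlapped, with 3 controls inside the low-dose range and 3 below it, and the low-dose difference was 0.44 ± 0.18 (limma, adjusted p = 0.340). Atp5k, subunit e of the ATP synthase, which holds synthase dimers together (chr5:108674089-108674344, mm8, minus strand, spanning an intron), had 3.83, 4.22 and 4.26 in controls and 4.18, 4.43 and 4.61 at the low dose. Its groups overlapped, with a difference of 0.26 ± 0.11 (limma, adjusted p = 0.376).

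In complex I, the next genes by p were Ndufa9, an accessory subunit near the coenzyme Q site, at -0.21 ± 0.10 (limma, adjusted p = 0.466), and Ndufab1, the acyl carrier protein, at 0.17 ± 0.10 (adjusted p = 0.555). In complex III, Uqcrq was at -0.36 ± 0.13 (limma, adjusted p = 0.275) from a probe saturated on 17 arrays, and its unsaturated probe gave -0.12 ± 0.14. The core protein Uqcrc1 was at -0.18 ± 0.15 and the hinge protein Uqcrh at -0.15 ± 0.11. In complex IV, Cox7a2 was at 0.19 ± 0.11. In complex V, the catalytic subunit Atp5b was at -0.20 ± 0.10 (limma, adjusted p = 0.456) from its brightest probe, saturated on 1 control, 5 low-dose and 5 high-dose arrays, and at -0.15 ± 0.14 and -0.12 ± 0.13 from its other probes. Atp5s was at -0.20 ± 0.12. Low-dose and control mice overlapped for each gene of this paragraph.

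**Figure D1:**
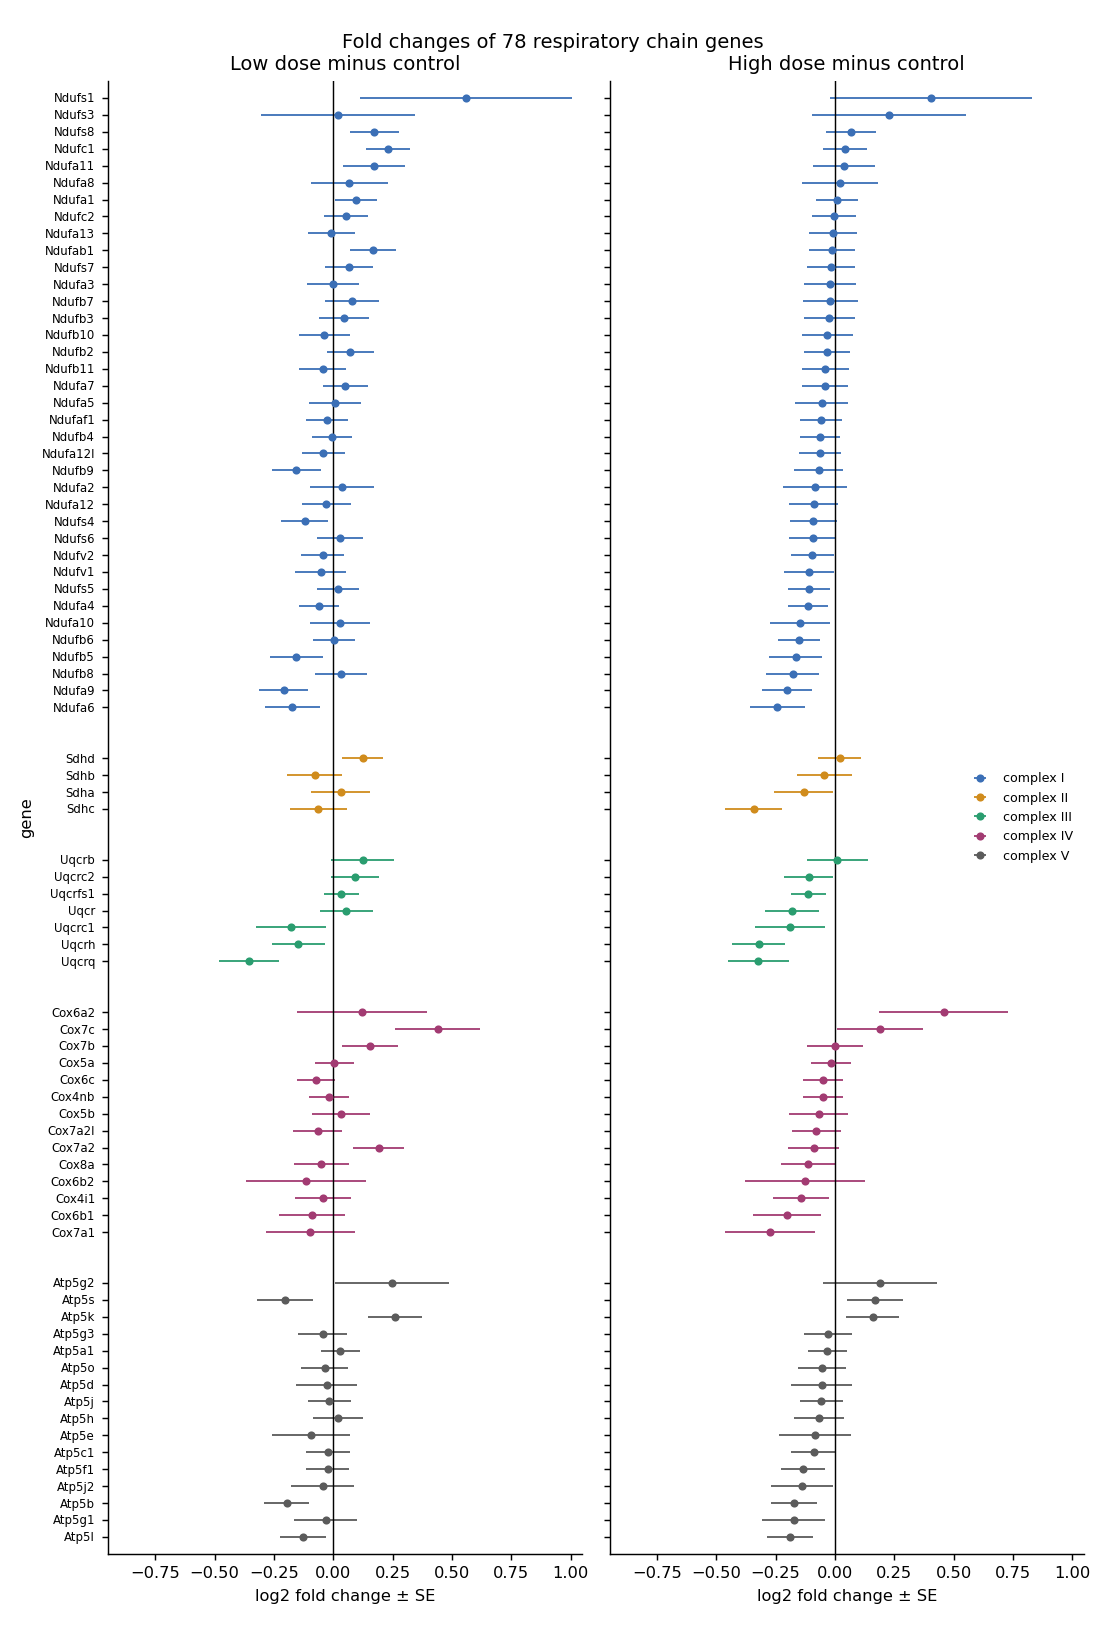
Log2 fold change with its standard error of 78 genes (Cox6a1, saturated on all arrays, and 1 gene not reported here are left out) at the low dose (left) and high dose (right), against the same 6 controls, grouped and coloured by complex and ordered by the high-dose value. Most high-dose points lie left of 0, and Uqcrq and Atp5b come from probes saturated on 17 and 11 arrays.

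At the high dose, again none of the 80 genes passed an adjusted p of 0.05 (limma), in a comparison where 0 of 17682 genes passed (0%). The values leaned one way: 66 of the 80 genes were lower than in controls and 14 higher, with a median of -0.07, whereas 47.8% of all genes were lower and their median was 0.01. This lean rested mostly on 1 animal: without high-dose mouse 2, 45 were lower and 35 higher, with a median of -0.01, against 44.0% of all genes lower. It also depended on the scaling, with 45 of 80 lower under quantile normalisation (median -0.03) and 55 of 80 in the deposited table, and turned under normexp background correction, where 31 were lower and the median was 0.03. Without adjustment, 4 genes were lower at p under 0.05 (background 3.26%), Uqcrh, Sdhc and the saturated Uqcrq and Cox6a1, and 0 were higher (background 3.42%). Of the 75 respiratory chain genes saturated on no array, 2 were lower at this threshold. For 1 gene, Sdhc, all high-dose mice lay below all controls (background 0.232% lower), and for 0 genes above (background 0.153% higher). The 95% interval lay within 0.5 of 0 on both sides for 67 of the 80 genes (83.8%), against 50.2% of all genes. Within slides, the median over these genes differed by -0.31 on the slide of high-dose mouse 2, and by -0.0009, 0.01 and 0.004 on the other 3 slides with both groups. High-dose mouse 4, with a median of -0.17, was on a slide without controls and is not part of these differences.

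By complex, the high-dose median was -0.06 in complex I (31 of 38 lower), -0.09 in complex II (3 of 4), -0.18 in complex III (6 of 7), -0.08 in complex IV (13 of 15) and -0.06 in complex V (13 of 16). Without high-dose mouse 2, these medians were -0.0008, 0.02, -0.08, -0.05 and -0.0007, with 19 of 38, 2 of 4, 6 of 7, 10 of 15 and 8 of 16 lower. Complex III thus kept its count of 6 of 7 genes lower, with a median nearer 0. Its median was below 0 under every scaling tried, from -0.25 with the array median to -0.09 with normexp. It was -0.04 with array brightness as a covariate, and -0.11 when only probes saturated on no array were used. Normexp turned the medians of complexes I, II and V above 0, to 0.08, 0.02 and 0.05, and quantile normalisation and the deposited table each put that of complex V at 0.002, with 7 and 8 of 16 lower. The median of complex IV also stayed below 0 under each scaling, from -0.15 (array median) to -0.04 (quantile normalisation). The fit that included brightness put complex IV at -0.044 and complex III at -0.036. A steady sign was thus not particular to complex III. Within slides, the high-dose median of complex III lay below that of the controls on all 4 slides, by -0.05 to -0.46. In complex III, 4 of the other 5 high-dose mice had medians below the lowest control. None of these values is a test, and complex III includes the saturated Uqcrq.

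Sdhc, the larger membrane anchor of succinate dehydrogenase (probe at chr1:172966201-172966260, mm8, minus strand), had control levels of 4.39, 4.50 and 4.69 and high-dose levels of 3.90, 4.16 and 4.38. The high-dose mice all lay below the lowest control, though the highest of them came close to it, while the low-dose mice (4.13, 4.39 and 4.91) overlapped both groups. The difference was -0.34 ± 0.12 (limma, adjusted p = 0.708), and -0.29 ± 0.12 without high-dose mouse 2. Of the other succinate dehydrogenase subunits at the high dose, the flavoprotein Sdha was at -0.13 ± 0.12, the iron-sulfur subunit Sdhb at -0.04 ± 0.12 and the smaller anchor Sdhd at 0.02 ± 0.09, the last with a value missing for 1 high-dose mouse.

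Uqcrh, the hinge protein between cytochrome c1 and cytochrome c (chr4:115564971-115565030, mm8, minus strand), had control levels of 6.95, 7.30 and 7.46, low-dose levels of 6.96, 7.14 and 7.25, and high-dose levels of 6.57, 7.04 and 7.16. The lowest control lay inside the high-dose range and the other 5 controls above it. The difference was -0.32 ± 0.11 (limma, adjusted p = 0.708), and -0.24 ± 0.10 without high-dose mouse 2. A second Uqcrh probe gave -0.22 ± 0.12. Uqcrq, the ubiquinone-binding subunit, was at -0.32 ± 0.13, again from the probe saturated on 17 arrays, and at -0.10 ± 0.14 from its unsaturated probe. Uqcr, now named Uqcr11, was at -0.18 ± 0.11 (limma, adjusted p = 0.796).

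In complex I, Ndufa6, an accessory subunit of the LYR family (chr15:82178778-82178837, mm8, minus strand), had 5.16, 5.24 and 5.44 in controls and 4.68, 4.97 and 5.39 at the high dose. The groups overlapped, and 4 of the 6 high-dose mice lay below the lowest control. Its difference was -0.24 ± 0.12 (limma, adjusted p = 0.748), that of Ndufa9 -0.20 ± 0.10 and that of Ndufb6 -0.15 ± 0.09. In complex IV, Cox6a2 was at 0.46 ± 0.27 and Cox7a1 at -0.27 ± 0.19 (limma, adjusted p = 0.792 and 0.819). In complex V, Atp5l, subunit g, was at -0.19 ± 0.10 with 1 control value missing, Atp5b at -0.17 ± 0.10 and Atp5f1, subunit b of the peripheral stalk and now named Atp5pb, at -0.13 ± 0.09. The other Atp5b probes gave -0.22 ± 0.15 and -0.25 ± 0.13.

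**Figure D2:**
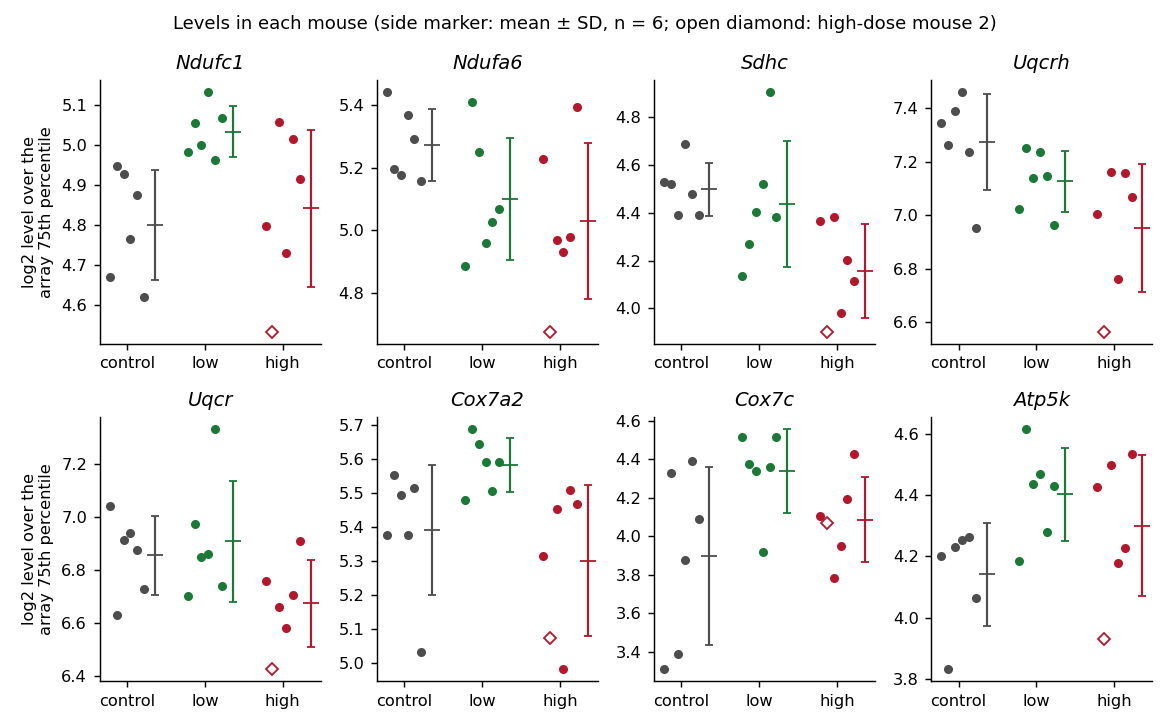
Log2 level over the array's 75th percentile in each mouse for 8 genes, by group, with the mean and SD of each group beside the points. Ndufc1 is the gene whose low-dose mice all lie above the controls, Sdhc the one whose high-dose mice all lie below them, and the open diamond, high-dose mouse 2, is the lowest of the high-dose mice in 6 of the 8 genes.

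Between the doses, none of the 80 genes passed an adjusted p of 0.05, in a comparison where 5 of 17682 genes, or 0.0283%, passed (limma). At the high dose, 65 of the 80 genes were lower than at the low dose and 15 higher, with a median of -0.07, against 46.2% of all genes lower. Without high-dose mouse 2, 46 were lower and 34 higher, with a median of -0.01. The median stayed below 0 under each scaling tried, from -0.04 under quantile normalisation to -0.28 under normexp, with 61 and 75 genes lower, and 76 were lower with the array median. Without adjustment, 1 gene was higher at p under 0.05 (background 3.53%) and 3 lower (background 4.11%), Cox7a2, Sdhc and Uqcr. For 0 genes did the 2 dose groups fail to overlap (background 0.141% higher and 0.339% lower). Within slides, the median over these genes differed by -0.28 to 0.06 on 5 slides. This comparison shares its mice with both others.

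Cox7a2, the form of complex IV subunit VIIa found in most tissues (chr9:79541104-79541163, mm8, minus strand), had low-dose levels of 5.48, 5.59 and 5.69 and high-dose levels of 4.98, 5.38 and 5.51. The groups overlapped only at the edge, and controls (5.03, 5.44 and 5.55) lay across both. The difference was -0.28 ± 0.11 (limma, adjusted p = 0.504), -0.24 ± 0.11 without high-dose mouse 2, and -0.18 ± 0.16 from a second probe. Sdhc was at -0.28 ± 0.12 and Uqcr at -0.24 ± 0.11 (limma, adjusted p = 0.596 and 0.653). The 1 higher gene was Atp5s, a coupling factor by its old name and no subunit of the synthase, at 0.37 ± 0.12 (limma, adjusted p = 0.390), with low-dose levels of -0.13, 0.09 and 0.25 and high-dose levels of 0.06, 0.48 and 0.70. Among the rest, Ndufb8 was at -0.21 ± 0.11, Ndufc1 at -0.19 ± 0.09, Ndufab1 at -0.18 ± 0.10, the core protein Uqcrc2 at -0.20 ± 0.10 and the Rieske iron-sulfur protein Uqcrfs1 at -0.15 ± 0.07.

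The lean at the high dose was followed mouse by mouse. High-dose mouse 2 had 75 of 79 measured genes below the control mean (Cox6c had no value on its array), with a median deviation of -0.37. The other 5 high-dose mice had medians of -0.17, -0.05, -0.02, 0.07 and 0.07, the controls -0.06 to 0.08 and the low-dose mice -0.13 to 0.14. For 56 of the 79 genes this mouse had the lowest value of all 18, a place it took for 12.4% of all genes. The median of all its genes deviated by -0.07. All of complex II (4 genes, median -0.57) and all of complex III (7 genes, median -0.47) lay below the control mean, as did 37 of 38 genes of complex I (-0.34), 15 of 16 of complex V (-0.43) and 12 of 14 measured of complex IV (-0.37). Among the genes far below the control mean were Cox7a1 (-0.99), Uqcrc1 (-0.75), Uqcrh (-0.71) and Ndufb8 (-0.68). The 4 genes above the control mean were Ndufs3, Cox7c, Atp5s and Cox6a2.

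The same liver stood apart more widely. Of all its genes, 11.4% lay further than 1 (log2) from the control mean, against 3.20% to 8.54% in the other 17 mice. It also stood apart in neutrophil and Kupffer cell markers. Its median deviation of endothelial markers, -0.50, was the lowest of the 18 mice, though close to -0.46 in high-dose mouse 6. Those of B cell (0.51), T cell (-0.15), stellate cell (-0.52) and erythroid (-0.58) markers lay within the ranges of the other mice. S100a8 and S100a9, the calprotectin subunits abundant in neutrophils, were at 2.69 and 5.50, against highest values of -0.41 and 2.43 among the other 17 mice, and the neutrophil granule gene Ltf was at 0.28 against -2.60. These are 3 of 5 neutrophil markers, and Ngp and Camp were not kept. The summed neutrophil marker level ran from 0.05 to 1.47 in controls, from 0.38 to 2.66 at the low dose and from -0.62 to 5.73 at the high dose. All 7 measured Kupffer cell markers were above the control mean there, with a median deviation of 1.50, and 5 of them exceeded every other mouse. Their summed level ran from 4.78 to 6.42 in controls, 5.12 to 6.59 at the low dose and 5.33 to 7.22 at the high dose. Of 5 measured cholangiocyte markers, Spp1 was at 6.54 (highest of the others 4.80) and Sox9 at 0.76 (0.37), while Epcam and Krt7 were the lowest of the 18 and Krt19 lay within the range of the others. The summed cholangiocyte level ran from 3.13 to 4.42 in controls, 3.31 to 4.89 at the low dose and 3.38 to 6.57 at the high dose. The hepatocyte marker sum ran from 10.4 to 10.9 in controls, 10.3 to 10.7 at the low dose and 10.4 to 10.6 at the high dose. This sum weighs the brightest probes most. Of the 10 hepatocyte markers, 4 were lower than control at an unadjusted p under 0.05 at each dose (limma, background 5.7% and 3.26%). At the low dose 1 was higher, and at the high dose 0. The 29 genes saturated on all 18 arrays had medians of -0.36 and -0.33 against control. The part of saturation in the hepatocyte marker values was not tested. In high-dose mouse 2 the median deviation of the hepatocyte markers was -0.31, and the other mice ran from -0.57 to 0.13. The part of these cells in the lower respiratory chain values was not tested. The brightness of this array, 8.06, and its share of probes well above background, 59.2%, lay within the ranges of the other arrays.

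**Figure D3:**
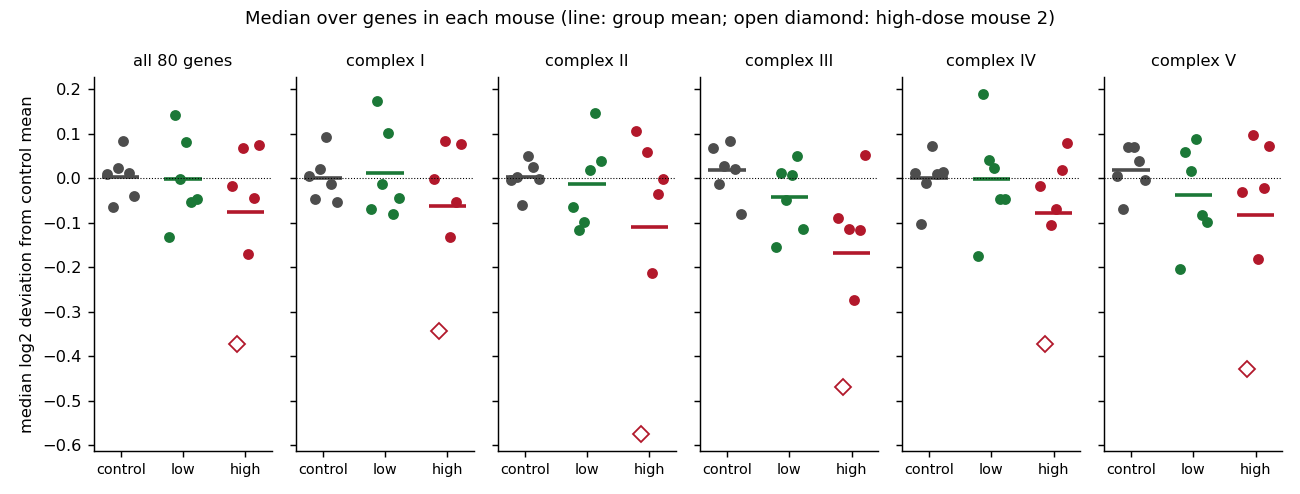
Median log2 deviation from the control mean over all 80 genes and over each complex (panels), 1 point per mouse, with the group mean as a line. High-dose mouse 2, the open diamond, is the lowest of the 18 mice in each panel and in complex III 4 of the other 5 high-dose mice also lie below the lowest control.

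**Figure D4:**
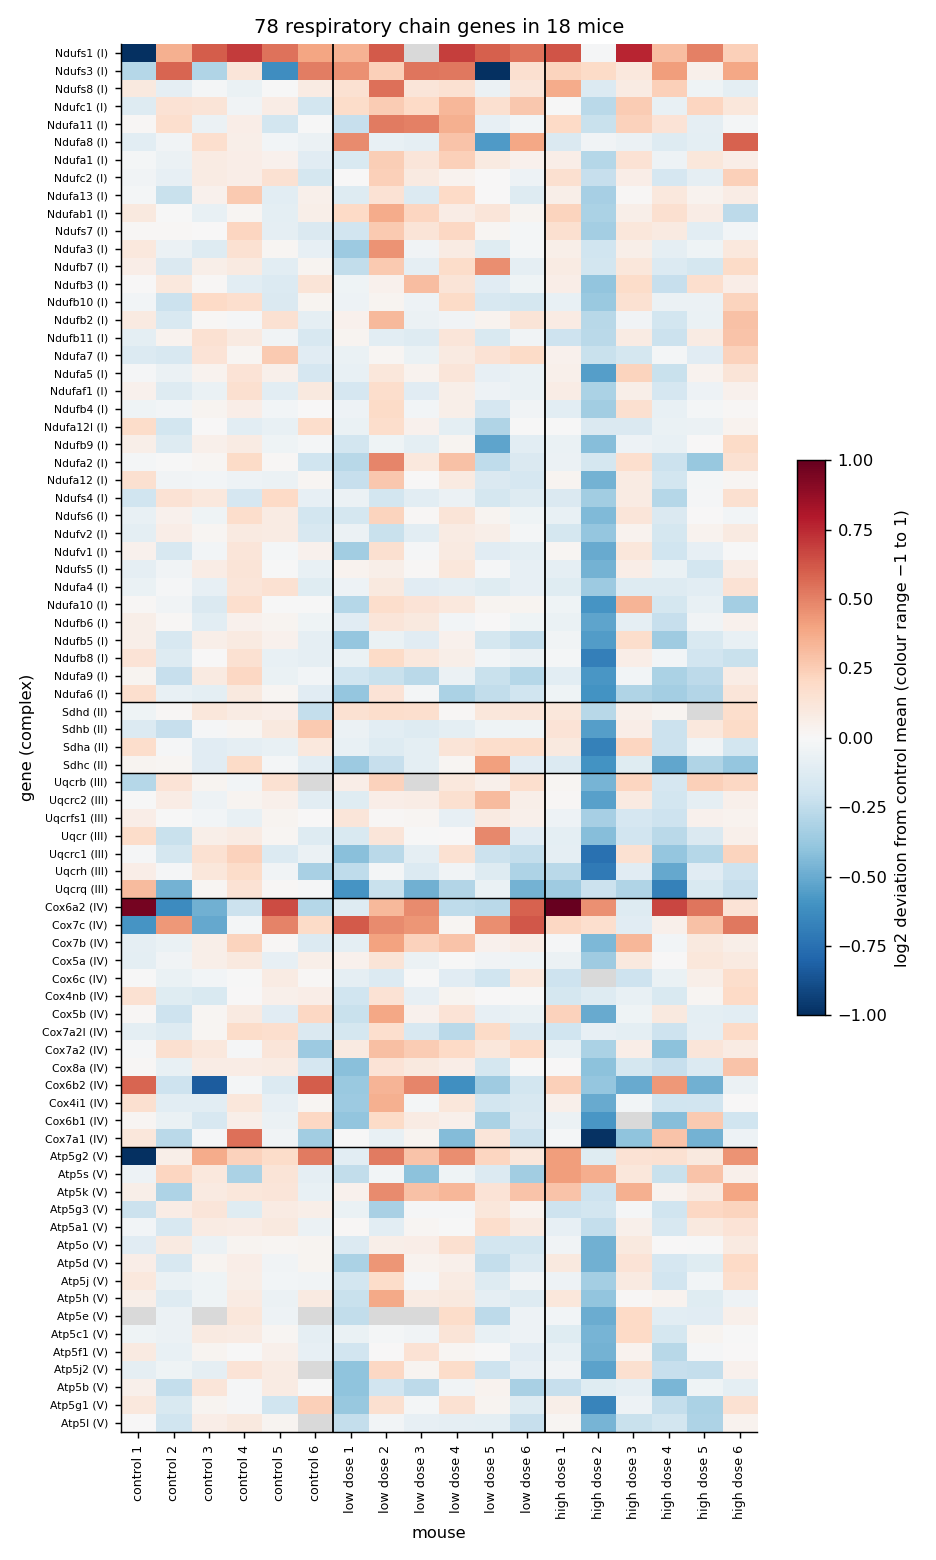
Log2 deviation from the control mean of the same 78 genes (rows, by complex) in 18 mice (columns, by group), with grey for a missing value and the colour held between -1 and 1. The column of high-dose mouse 2 is blue in nearly all rows, while low-dose mouse 2 has many red rows.

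Among the other animals, low-dose mouse 2 had the highest value of all 18 mice for 28 genes, a place it took for 9.34% of all genes. Its median was 0.14, against 0.08 over all its genes. Low-dose mouse 1 had the lowest median of the low-dose group, -0.13, against -0.05 over all its genes. The genes themselves varied little between mice of a group. The median within-group SD of the respiratory chain genes was 0.17 against 0.29 for all genes, and among controls 0.12 against 0.25. The SD was lowest for Uqcrfs1, at 0.10, and highest for Ndufs1, a core subunit of complex I, at 0.79. Control mouse 1 stood at 2.11 for Ndufs1, while the other 5 controls ran from 5.06 to 5.40. With 1 low-dose value missing, the difference of Ndufs1 from control was 0.56 ± 0.45 for the low-dose group and 0.40 ± 0.42 for the high-dose group. Both rested on this 1 control, and without it they were 0.04 ± 0.13 and -0.12 ± 0.13, the latter with its sign turned.

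Some subunits of complex IV and of the synthase exist in tissue forms. Of the liver-type and common forms, Cox4i1 was at -0.04 ± 0.12 (low dose) and -0.14 ± 0.12 (high dose), Cox6b1 at -0.09 ± 0.14 and -0.20 ± 0.14 (1 high-dose value missing), Cox7b at 0.16 ± 0.12 and -2.14e-05 ± 0.12, and Cox8a at -0.05 ± 0.12 and -0.11 ± 0.12. Of forms known from muscle or testis, Cox6a2 was at 0.12 ± 0.27 and 0.46 ± 0.27, Cox7a1 at -0.10 ± 0.19 and -0.27 ± 0.19, and Cox6b2 at -0.12 ± 0.25 and -0.13 ± 0.25, each well above background on all 18 arrays but with wider errors. The 3 striated muscle markers kept were also all higher than control at the high dose (median 0.62, with 2 of 3 higher without high-dose mouse 2), and none passed the threshold. Their summed level ran from -2.78 to -1.29 in controls, -3.04 to -1.75 at the low dose and -2.34 to -0.55 at the high dose, and their part in the Cox6a2 value was not tested. Cox7a2l, which takes part in joining complexes III and IV, was at -0.07 ± 0.10 and -0.08 ± 0.10, and Ndufa4, found with complex I by name but with complex IV in later work, at -0.06 ± 0.08 and -0.12 ± 0.08. The genes for the proton-carrying c subunit, Atp5g1, Atp5g2 and Atp5g3, had low-dose differences of -0.03 ± 0.13, 0.25 ± 0.24 and -0.04 ± 0.10, and high-dose differences of -0.17 ± 0.13, 0.19 ± 0.24 and -0.03 ± 0.10. Both Atp5g2 values rested on control mouse 1, at 3.94 where the other controls ran from 5.36 to 5.82, and turned to -0.02 ± 0.13 and -0.08 ± 0.13 without it. A second Atp5g2 probe gave -0.08 ± 0.10 and -0.18 ± 0.10. The assembly factors Ndufaf1 and Ndufa12l were at -0.03 ± 0.09 and -0.04 ± 0.09 at the low dose and both at -0.06 ± 0.09 at the high dose, and Cox4nb at -0.02 ± 0.08 and -0.05 ± 0.08. None of these passed the threshold. At the low dose, the succinate dehydrogenase genes Sdha, Sdhb, Sdhc and Sdhd were at 0.03 ± 0.12, -0.08 ± 0.12, -0.06 ± 0.12 and 0.13 ± 0.09.

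For 24 of the 80 genes more than 1 probe was kept. All probes of a gene had the same sign for 15 of the 24 at the low dose, 17 at the high dose and 16 between the doses. The median range between the probes of a gene was 0.09, 0.11 and 0.06.

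Of the listed genes around the chain, none passed an adjusted p of 0.05 (limma). Of 78 mitochondrial ribosomal proteins, which make the subunits encoded in mitochondrial DNA, 58 were higher at the low dose (median 0.06, with 5 higher and 2 lower at an unadjusted p under 0.05, background 5.81% and 5.7%). At the high dose 50 of the 78 were lower than in controls (median -0.03), a median that turned to 0.001 under quantile normalisation and to 0.09 under normexp, and 63 were lower than at the low dose (median -0.07, with 10 lower at an unadjusted p under 0.05, background 4.11%), or 57 and 8 without high-dose mouse 2. Normexp put 76 of the 78 above control in the low-dose group. Mrpl12, one of these proteins, was at -0.36 ± 0.11 at the high dose against controls (limma, adjusted p = 0.667). Of 32 assembly factors, 25 were higher at the low dose (median 0.06), with Foxred1, which helps build complex I, at 0.29 ± 0.11 and Cox20, which helps build complex IV, at 0.20 ± 0.08. At the high dose 17 of the 32 were lower than in controls, 12 without high-dose mouse 2, and 11 under quantile normalisation.

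Of 17 genes of the pyruvate dehydrogenase complex and citric acid cycle, which feed the chain, the low dose was higher than control for 9 and the high dose for 4, counts that became 17 and 8 under normexp. Pdhb, a subunit of pyruvate dehydrogenase, came nearest to a call, with control levels of 4.25, 4.52 and 4.73 and low-dose levels of 4.84, 4.99 and 5.47. The ranges did not overlap (background 0.871% of all genes higher), and the difference was 0.55 ± 0.13 (limma, adjusted p = 0.0745). Dlat, the acetyltransferase of the same complex, was at 0.54 ± 0.15 (limma, adjusted p = 0.165) at the low dose against control, and at -0.68 ± 0.15 at the high against the low dose (adjusted p = 0.172). Citrate synthase, Cs, was at -0.44 ± 0.14 between the doses (limma, adjusted p = 0.379).

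Of 17 regulators of mitochondrial biogenesis, Esrra, the estrogen-related receptor alpha, was at -0.28 ± 0.10 at the low dose (limma, adjusted p = 0.264) and 0.28 ± 0.10 higher at the high than at the low dose (adjusted p = 0.460). Ppargc1b, a coactivator of these receptors, was at 0.44 ± 0.19 at the high dose (limma, adjusted p = 0.720). Of 22 import genes, 12 were higher at the low dose and 14 lower at the high dose (7 under normexp), where the receptor Tomm20 was at -0.21 ± 0.07 (limma, adjusted p = 0.667). Of 8 genes by which electrons enter from other substrates, Prodh, proline dehydrogenase, had control levels of 4.30, 4.63 and 4.76 and high-dose levels of 4.90, 5.06 and 5.58. These groups did not overlap (background 0.153% of all genes higher), and the difference was 0.56 ± 0.12 (limma, adjusted p = 0.632). The 9 genes of coenzyme Q synthesis split 5 to 4 at the low dose and 4 to 5 at the high dose, higher to lower. Of the 3 transcripts of mitochondrial DNA on the array, ND4L was at -0.005 ± 0.08 at the low and 0.02 ± 0.08 at the high dose, CYTB at -0.007 ± 0.16 and -0.09 ± 0.16, and COX2 was saturated on 17 arrays. Of the 6 subunits or carriers under other names, Cycs, cytochrome c, was at -0.14 ± 0.12 at the high dose, and of the 6 ATP export and phosphate genes, Vdac1, a pore of the outer membrane, was at -0.19 ± 0.09. Ucp2, the 1 uncoupling protein measured, was at -0.22 ± 0.21 and 0.05 ± 0.21.

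**Figure D5:**
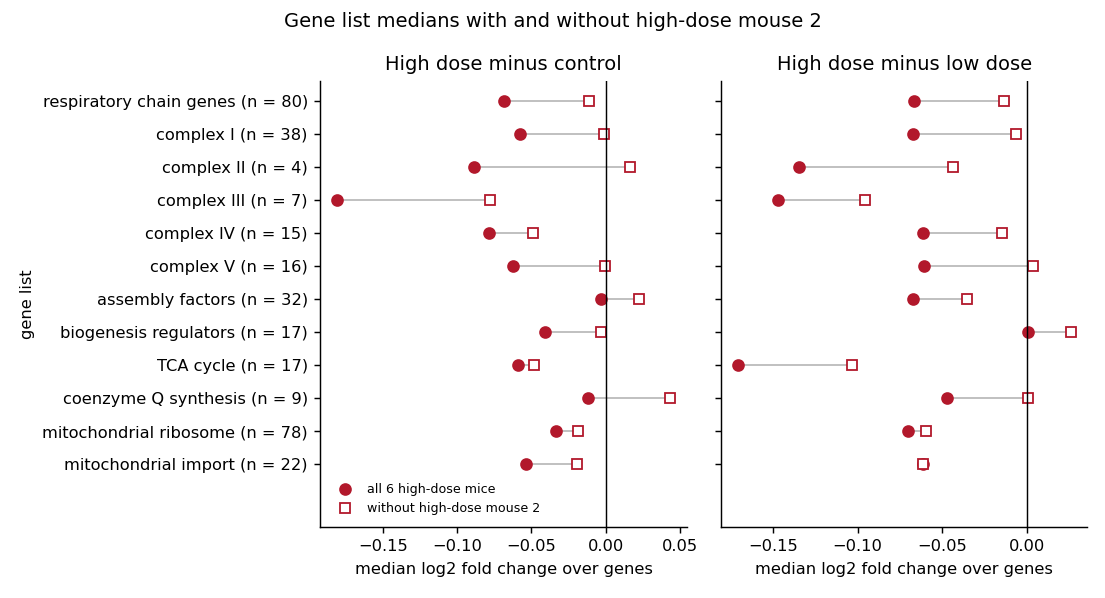
Median log2 fold change over the genes of each list (number of genes beside the name) for the high dose against control (left) and against the low dose (right), with all 6 high-dose mice (filled) and without high-dose mouse 2 (open). The median of the 80 respiratory chain genes against control moves from -0.07 to -0.01 without this mouse, that of complex III from -0.18 to -0.08, and that of the mitochondrial ribosome from -0.03 to -0.02.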

How the data were processed

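The deposited scanner files of 18 arrays (Agilent Feature Extraction 9.5.3.1, per the file headers) give spot intensity after background subtraction, in arbitrary units and not scaled between arrays. The deposited value table holds log2 values of 22514 probes, whose making is not given in the sources used here beyond limma and Feature Extraction 9.5 in the submitters' processing notes. The log2 of each intensity was taken, and the 75th percentile over the array's probes was subtracted from it. Outlier spots were dropped and repeated spots averaged. Probes well above background on at least 6 of 18 arrays were kept (25427 of 41174), with the brightest of them standing for a gene. RefSeq names were matched for 17003 kept probes, while the respiratory chain genes kept the array's names. Probe positions are those of the files (mm8). Exon placement is not given in the sources used here. The values of 1 gene are not reported here, though it is part of the counts and medians.

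The 3 groups of 6 were fitted in one model with limma 3.58.1 in R 4.3.3 (lmFit and eBayes, no covariate), with Benjamini-Hochberg adjustment over 17682 genes and a threshold of 0.05. The fit was also run on simulated data with known changes. Genes varied independently there, so that run cannot show how the fit handles shifts shared within a mouse, slide or array. Values missing for a gene were left out of its fit. Arrays fell on 5 slides, taken as arrays that share a scan time. The number of mice limits the precision. The members, the gene lists and the named genes (in each comparison, any gene past the threshold and the 3 of each complex with the smallest p, plus Sdh genes, tissue forms, non-subunits and up to 2 genes of each other list) were chosen with earlier results of these data known. Ndufs1 and the genes listed for high-dose mouse 2 were chosen after their values were seen. Alternatives changed the scaling, background correction, filter, probe choice, names, model, slide, brightness and mice. The counts for complexes and lists without high-dose mouse 2, and Ndufs1 and Atp5g2 without control mouse 1, were added after the data were seen.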

Additional observations from a re-analysis of the deposited data

Results flagged for a closer look

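Of 132 groups of mice (3 groups of each of 38 named genes and 6 medians), those with a missing value were not examined. In 7 of the rest, the gap of 1 mouse to the nearest of the others was large for the group's range. Its share of that range passed Dixon's 95% critical value for 6 samples, and chance alone gives such a gap in about 1 in 20 groups. The values below are log2 levels. Atp5b stood at 7.66 in control mouse 2, next to 7.89, and its probe was saturated on 1 control array. Atp5g2 was 3.94 in control mouse 1, next to 5.36. Cox7a2 was 5.03 in control mouse 6, next to 5.37. Cox7a2l was 4.13 in high-dose mouse 6, next to 3.85. Cox7c was 3.92 in low-dose mouse 4, next to 4.34. Ndufa4 was 6.75 in low-dose mouse 2, next to 6.60. Ndufa9 was 5.85 in low-dose mouse 4, next to 5.70. The medians of high-dose mouse 2, lowest of all mice, did not meet this rule.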

How the results depend on the processing

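No respiratory chain gene passed 0.05 in any comparison under the 18 settings that left out 1 mouse or the 19 others. Their median moved beyond the spread between mice (SD of the per-mouse medians within groups, 0.12) only with normexp background correction (offset 50). It then was 0.32 at the low dose against control and -0.28 between the doses. This spread is wider than each of the 3 main medians, so it cannot tell whether a smaller median held. The low-dose median also changed sign under quantile normalisation, updated names, slide as a fixed or random block, and brightness as a covariate. Without 1 mouse, the median of these genes ran from -0.03 to 0.02 at the low dose, from -0.11 to -0.01 at the high dose and from -0.10 to -0.01 between the doses, in both latter cases nearest 0 without high-dose mouse 2. The count over all genes was less stable. At the low dose 42 genes passed, and 8 with the array median, 13 with normexp, 15 without the filter, 98 with probes well above background on all arrays, 22 with mean probes, 79 with the 2 groups alone, 94 with a robust trend, 115 with array weights, 2 with slide as a block, 0 with brightness as a covariate and 6 with the replicate number as a block. Without 1 mouse it was 2 (control 5 or low-dose mouse 1) to 81 (high-dose mouse 2), and moved by over 1.5 times without any of the 6 controls, without low-dose mice 1, 2, 3, 5 or 6 and without high-dose mice 1, 2 or 3. Between the doses 5 passed, and 3 with the array median, 1 with normexp, 3 without the filter, 8 with all arrays above background, 11 for single probes, 0 with the 2 groups alone, 12 with array weights, 0 with slide as a block and 0 with the replicate block. Without 1 mouse it was 1 (controls 1, 4 or 5, low-dose mice 1, 5 or 6, high-dose mice 1 or 3) to 10 (low-dose mouse 4). At the high dose the count was 0 in each of the 18. The labels do not say what the mouse numbers mean, and the check of pairing was mixed. Same-numbered pairs correlated above 0.1 in 5 of 6 cases between control and high dose (4 of them on 1 slide), 1 of 6 between control and low dose and 2 of 6 between the doses (range -0.306 to 0.349), and 10 of 18 mice, not all, correlated best with their own number. The replicate block changed no call among the respiratory chain genes. Of 3187 recomputed values of named genes, 141 changed sign and 68 moved beyond the spread between mice, most of them under normexp. Saturation limits Cox6a1, Uqcrq and Atp5b.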
